A study of Xenopus laevis with 6 samples.

Results

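Probe sets for the precursors of 4 neuropeptide families were examined: cocaine- and amphetamine-regulated transcript (CART, *cartpt*), thyrotropin-releasing hormone (TRH, *trh*), the dynorphins (*pdyn*) and the enkephalins (*penk*). Probe sets annotated with a single symbol were taken when that symbol, without its .L or .S suffix, was one of these 4 names, which gave 7 of the 32539 probe sets tested (4 of 9273 genes). They were *cartpt.L* (1 probe set), *trh.L* (2 probe sets), *trh.S* (1), *pdyn.L* (1), *pdyn.S* (1) and *penk.L* (1). *Xenopus laevis* is allotetraploid, so most genes can have a copy on a long (.L) and on a short (.S) chromosome, called homeologs. All 7 probe sets matched protein-coding genes of the same symbol in the RefSeq gene table.

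Juvenile frogs, weighing 0.8 g on average, were injected into the brain ventricles and killed after 2 h. The leptin group (3 frogs, numbered 4 to 6 in the labels) was given recombinant frog (*X. laevis*) leptin, 20 ng for each g of body weight, and the saline group (3 frogs, numbered 1 to 3) received 0.6% saline. One piece of tissue holding the preoptic area, hypothalamus and pituitary was taken from each frog and hybridized to 1 Affymetrix array. Values are deposited log2 signals, so a difference of 1 is a 2-fold change in signal. In such a block, fewer cells of a type and less RNA per cell cannot be told apart.

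Neuropeptides are cut from larger precursors inside secretory granules and act on G protein-coupled receptors. Dynorphins act mainly on the kappa opioid receptor and enkephalins mainly on the delta and mu receptors, and in vertebrate forebrain the mRNAs of both are abundant in the striatum as well as in the hypothalamus. CART peptide reduces feeding in rodents, where leptin raises its mRNA in the arcuate nucleus. TRH releases thyrotropin and prolactin from the pituitary, and in frogs it also releases melanocyte-stimulating hormone from the intermediate lobe. In rodents, *trh* neurons of the paraventricular nucleus are activated by leptin.

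Signals of tissue markers differed between the blocks, and what tissue each block held was not measured. The summed markers are given here as the mean log2 signal of each list's measured genes. The mean of 11 pituitary markers was 9.50 to 9.72 in leptin frogs and 5.48, 8.93 and 10.07 in saline frogs 1, 2 and 3. Saline frog 1 was thus far the lowest, and saline frog 2 also lay below the leptin frogs. All 11 had the higher mean in leptin frogs, against 44.9% of all genes. The mean of 12 skeletal muscle markers was 6.33 to 6.48 in leptin frogs and 6.38 to 8.68 in saline frogs, with saline frog 3 at the high end. The mean of 7 pallium markers was 9.65 to 9.86 in leptin frogs and 9.90, 9.76 and 8.84 in saline frogs 1, 2 and 3. The 19 measured hypothalamus and preoptic markers averaged 7.76 to 7.92 in leptin frogs and 7.74 to 8.20 in saline frogs. Of these, 6 were higher and 13 lower in leptin frogs (median difference -0.14). They included the transcription factors *nkx2-1.L* (-0.19, SE 0.13) and *rax.S* (0.35, SE 0.15), both named after their values were seen and both with overlap between groups. Without overlap, and also named after their values were seen, were *lhx5.S* (-0.23, SE 0.10) and *nkx2-2.S* (-0.38, SE 0.20), both lower in leptin frogs. Over all probe sets, 11.9% had no overlap. The signal of *rax.S* was low, 5.14 to 5.85 over the frogs. Array medians lay between 7.36 and 7.46. Each sample has its own frog number in the labels, which state no batch or pairing.

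Prodynorphin showed the clearest difference among the 4 genes, and it was lower in leptin frogs on both homeologs. The *pdyn.L* probe set (Xl2.34938.1.S1_at) read 9.80, 9.98 and 9.67 in leptin frogs 4, 5 and 6, against 10.38, 10.09 and 10.52 in saline frogs 1, 2 and 3. All leptin frogs lay below all saline frogs, and leptin frog 5 and saline frog 2 were the nearest pair, 0.11 apart. Group means were 9.82 ± 0.16 in leptin frogs and 10.33 ± 0.22 in saline frogs (SD, n = 3 each). The difference was -0.52 on the log2 scale (SE 0.14, 95% confidence interval -0.85 to -0.18), or 0.699 times the saline signal.

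The *pdyn.S* probe set (Xl2.34939.1.S1_at) read 7.02, 7.18 and 7.11 in leptin frogs 4, 5 and 6, against 7.58, 7.37 and 7.82 in saline frogs 1, 2 and 3. Again the groups did not overlap, with a gap of 0.19 between leptin frog 5 and saline frog 2. The difference was -0.49 (SE 0.13, 95% confidence interval -0.80 to -0.18), or 0.714 times the saline signal. By p, *pdyn.S* and *pdyn.L* ranked 177 and 193 among the 32539 probe sets, and neither passed adjustment over all of them (limma adjusted p = 0.906 for both). The intervals are for single probe sets and are not adjusted.

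Proenkephalin was lower in leptin frogs by a smaller amount, and its groups touched. The *penk.L* probe set (Xl2.49114.1.S1_at) read 13.11, 13.21 and 13.15 in leptin frogs 4, 5 and 6, against 13.38, 13.20 and 13.46 in saline frogs 1, 2 and 3. Saline frog 2 lay among the leptin frogs, 0.0066 below leptin frog 5, while saline frogs 1 and 3 lay above all leptin frogs. Group means were 13.16 ± 0.05 in leptin frogs and 13.35 ± 0.13 in saline frogs (SD, n = 3 each), a difference of -0.19 (SE 0.09, 95% confidence interval -0.42 to 0.03, limma adjusted p = 0.906). Only 1 homeolog of *penk* was measured by a single-symbol probe set. By mean signal the probe set lay at percentile 99.1 of all probe sets, near the upper end of the array's range.

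The CART precursor had the largest difference of the 7 probe sets and also the largest spread between frogs. The *cartpt.L* probe set (Xl2.48694.1.S1_at) read 10.44, 9.40 and 10.34 in leptin frogs 4, 5 and 6, against 9.03, 8.96 and 10.01 in saline frogs 1, 2 and 3. Each group held 1 frog that read like the other group: leptin frog 5 lay near saline frogs 1 and 2, and saline frog 3 lay near leptin frogs 4 and 6. Group means were 10.06 ± 0.58 in leptin frogs and 9.33 ± 0.59 in saline frogs (SD, n = 3 each). The difference was 0.72 (SE 0.38, 95% confidence interval -0.19 to 1.64), or 1.65 times the saline signal, and it did not pass (limma adjusted p = 0.906). The SD over all 6 frogs, 0.66, lay at percentile 98.3 of all probe sets.

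**Figure D1:**
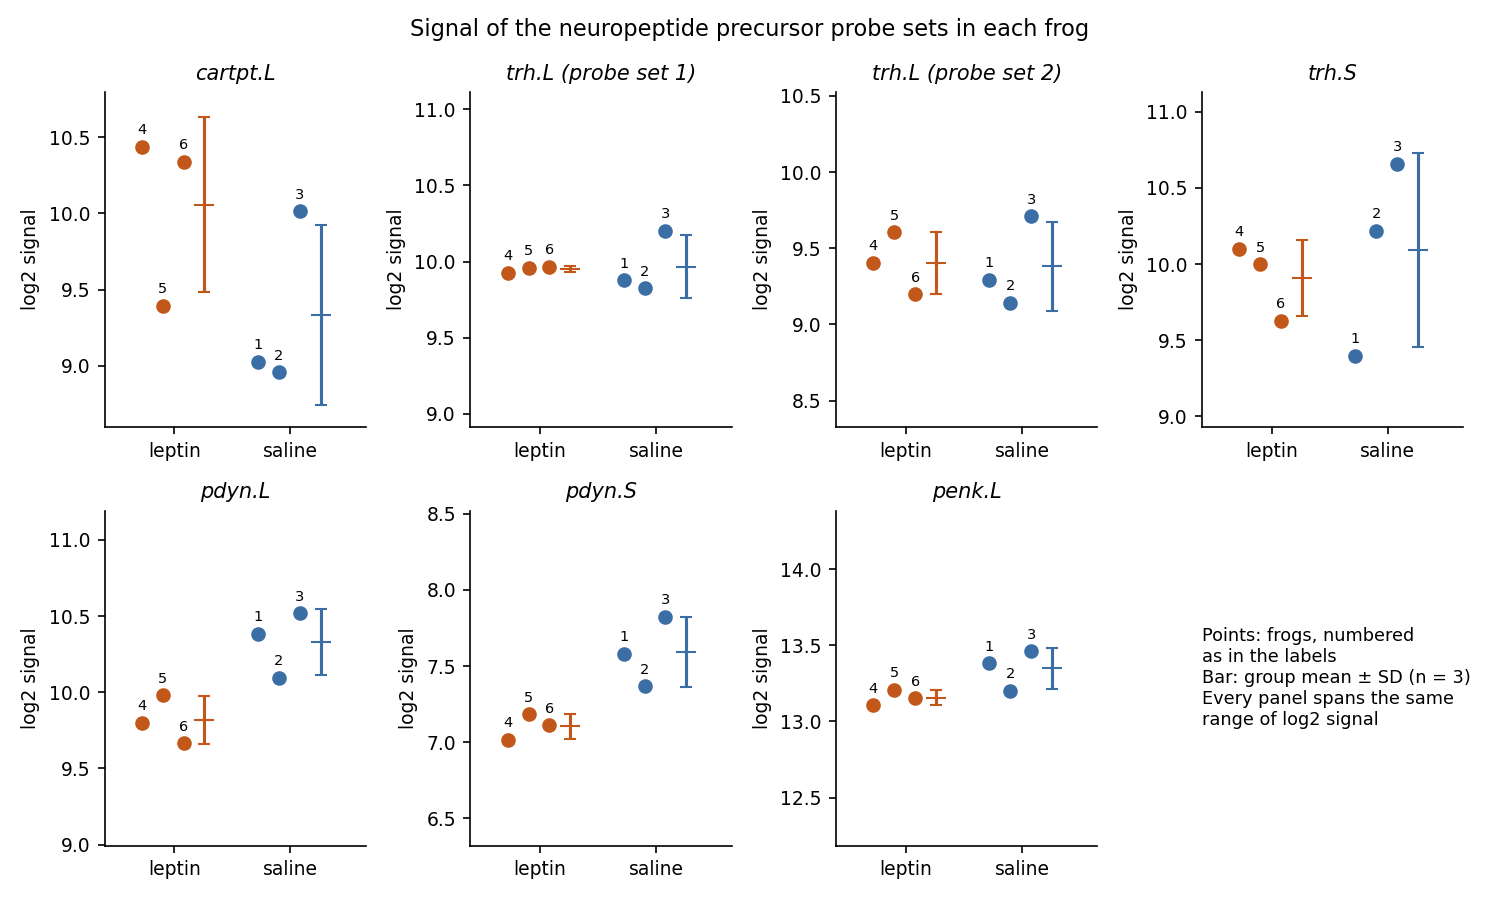
Log2 signal of the 7 probe sets in each frog, with leptin frogs (orange) left of saline frogs (blue) and bars for the group mean ± SD (n = 3). The groups are separate for *pdyn.L* and *pdyn.S*, touch for *penk.L*, and overlap for *cartpt.L* and the *trh* probe sets.

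With all 6 frogs, the TRH precursor showed no difference beyond the spread between frogs on any of its 3 probe sets. The *trh.S* probe set (Xl2.1142.1.S1_at) read 10.10, 9.998 and 9.63 in leptin frogs 4, 5 and 6, against 9.40, 10.22 and 10.66 in saline frogs 1, 2 and 3. All leptin values lay inside the range of the saline values, and the difference was -0.18 (SE 0.32, 95% confidence interval -0.95 to 0.58). That value depended on the setting: it was -0.53 without saline frog 1, the frog low in pituitary markers (SE 0.20, limma unadjusted p = 0.0434, adjusted p = 0.962), and -0.52 with the pituitary score (*pomc.L*, *gh1.L* and *cga.S*) as a covariate (SE 0.17, limma unadjusted p = 0.0237, adjusted p = 0.932). It was 0.10 without saline frog 3 (SE 0.28) and 0.15 with the muscle covariate (SE 0.35). The pituitary score was 5.88 in saline frog 1 and 12.24 to 13.14 in the other frogs. The muscle score was 9.90 in saline frog 3 and 6.31 to 7.25 in the other frogs. Each of these covariates mostly set 1 frog apart, so its fit was not independent of leaving that frog out. The brighter *trh.L* probe set (probe set 1) read 9.93, 9.96 and 9.97 in leptin frogs 4, 5 and 6, against 9.88, 9.82 and 10.20 in saline frogs 1, 2 and 3.

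Here, too, the leptin values lay within the saline range, and the difference was -0.02 (SE 0.12, 95% confidence interval -0.29 to 0.26). The other *trh.L* probe set (probe set 2, Xl2.863.1.S1_s_at), whose name carries the manufacturer's mark for probes that can match several transcripts, read 9.40, 9.61 and 9.20 in leptin frogs, against 9.29, 9.14 and 9.71 in saline frogs. Its difference was 0.02 (SE 0.18, 95% confidence interval -0.40 to 0.44). Limma adjusted p was 0.928, 0.982 and 0.987 for the 3 *trh* probe sets. The intervals still hold changes of 1.20-fold upward and 0.815-fold downward for *trh.L* probe set 1, and of 1.49-fold upward and 0.518-fold downward for *trh.S*.

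**Figure D2:**
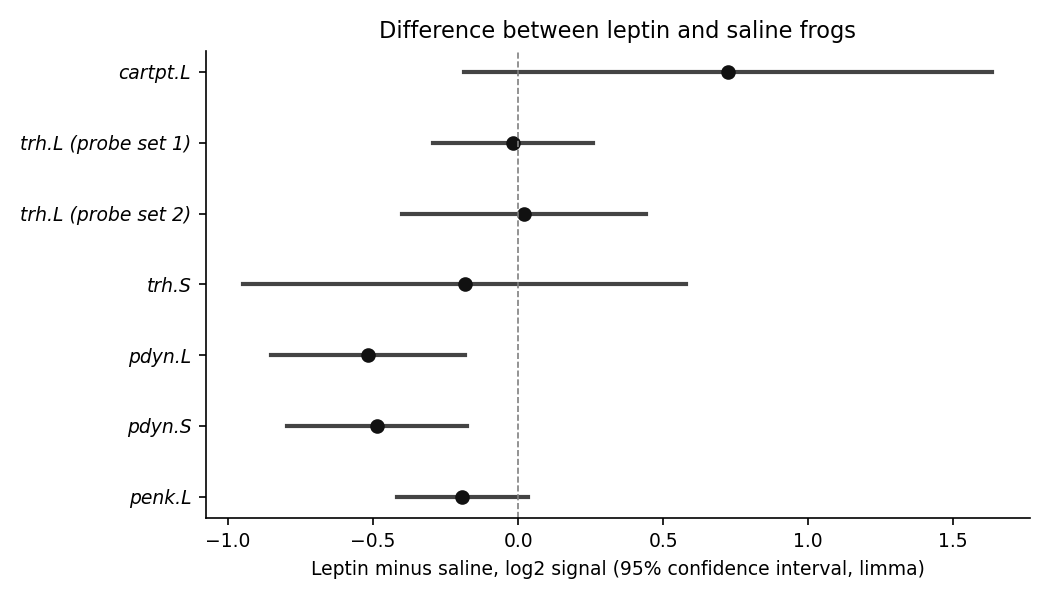
Leptin minus saline difference in log2 signal for each probe set (point) with its 95% confidence interval from limma (line). The intervals of *pdyn.L* (-0.85 to -0.18) and *pdyn.S* (-0.80 to -0.18) lie below 0 without adjustment, and those of the other 5 include 0.

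Across the 7 probe sets, 0 passed a limma adjusted p of 0.05, as for all probe sets, of which 0% passed. At an unadjusted p under 0.05, 2 of 7 passed, both lower in leptin frogs and both *pdyn*, against 4.71% of all probe sets (2.68% lower and 2.03% higher). Groups did not overlap for the same 2 of 7, against 11.9% of all probe sets (6.78% with leptin lower and 5.15% with leptin higher). The leptin mean was the lower one for 5 of 7 probe sets, against 47.6% of all probe sets, and the higher one for 2 of 7, against 52.4%. Since the 7 probe sets come from 4 genes, these counts do not stand for 7 separate genes.

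The homeologs of *pdyn* moved together from frog to frog. The signal of *pdyn.L* minus that of *pdyn.S*, a quantity that removes any effect shared by an array, was 2.71 ± 0.14 in leptin frogs and 2.74 ± 0.06 in saline frogs (SD, n = 3 each). It shifted by -0.03 with leptin (exact permutation p = 0.8, two-sided, the smallest possible being 0.1). Over the 6 frogs *pdyn.L* and *pdyn.S* had Pearson r = 0.96 (exact permutation p = 0.00278, 0.0278 adjusted over 10 relations) and a Spearman rank correlation of 0.94 (exact permutation p = 0.0167, 0.167 adjusted). Without leptin frog 6 and saline frog 3, the 2 frogs farthest from the *pdyn.L* median, r was 0.99. The permutations ran over all 6 frogs without regard to group, so a difference between groups shared by both probe sets enters these p-values. After group means were removed r was 0.84, which was not tested. Among the 4636 brighter genes searched below, 229 also had r over 0.9 with *pdyn.L*. Homeologs are close in sequence, and how far each probe set also detects the other copy was not tested.

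The copies of *trh* were less alike. The *trh.L* probe sets and *trh.S* had r = 0.60 (probe set 1, exact permutation p = 0.21) and r = 0.57 (probe set 2, exact permutation p = 0.242), each 0.483 adjusted. The Spearman rank correlation was 0.20 and 0.31 for the same pairs (exact permutation p = 0.714 and 0.564). Saline frog 1 was the lowest frog on *trh.S*, at 9.40, but lay within the range of the leptin frogs on *trh.L* probe set 2. On the brighter *trh.L* probe set 1 it read 9.88, below the leptin frogs (9.93 to 9.97) and above saline frog 2 (9.82). The difference between *trh.L* probe set 1 and *trh.S* was 0.04 ± 0.27 in leptin frogs and -0.12 ± 0.52 in saline frogs (SD, n = 3 each), a shift of 0.17 (exact permutation p = 0.6, two-sided). The shift was 0.21 for probe set 2 against *trh.S* (exact permutation p = 0.6). Without saline frog 1 these shifts were 0.47 and 0.51, and without saline frog 3 they were 0.00073 and 0.09. The *trh.L* probe sets themselves had r = 0.79 (exact permutation p = 0.0333, 0.111 adjusted), which was 0.22 without saline frogs 2 and 3. Those 2 frogs were left out because they lay farthest from the median of probe set 1. Leaving out the most extreme frogs tends to lower r by itself. The shift of the *trh.L* probe sets against each other was -0.04 (exact permutation p = 0.9).

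Between genes, *pdyn.L* and *penk.L* followed one another. Pearson r over the 6 frogs was 0.95 (exact permutation p = 0.00556, 0.0278 adjusted over the 10 relations), and the Spearman rank correlation was 0.89 (exact permutation p = 0.0333, 0.167 adjusted). These permutations, too, ran without regard to group. Pearson r was 0.97 without leptin frog 6 and saline frog 3, and 0.89 after group means were removed, which was not tested. For both genes saline frog 3 was highest, saline frog 1 next, and saline frog 2 closest to the leptin frogs. An r over 0.9 was not particular to this pair. Among the 4636 brighter genes searched below, 229 had r over 0.9 with *pdyn.L* and 211 with *penk.L*. The other 5 pairs of precursor genes had r between -0.48 and 0.32, with adjusted exact permutation p between 0.542 and 0.682. Saline frog 3 was the highest frog on 6 of the 7 probe sets, all except *cartpt.L*. The mean over all 9273 genes was 8.39 to 8.40 in leptin frogs and 8.41, 8.40 and 8.45 in saline frogs 1, 2 and 3.

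**Figure D3:**
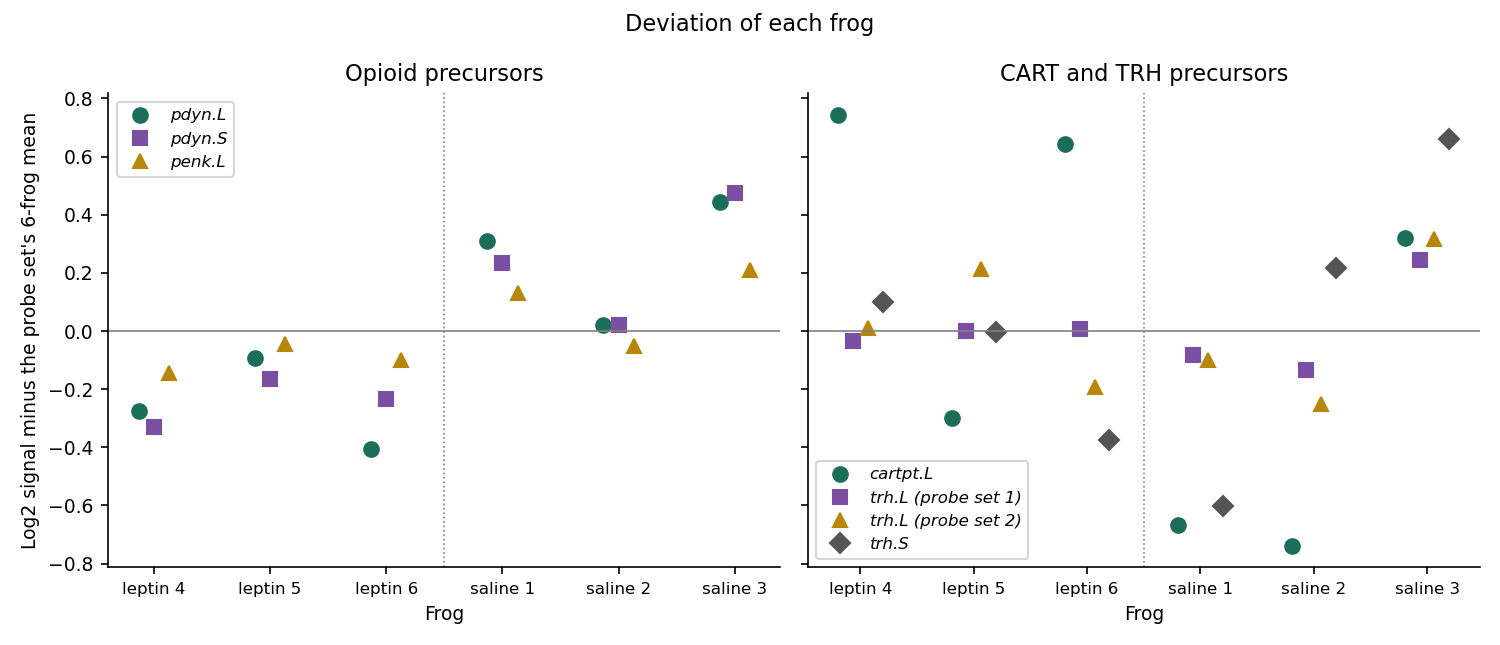
Log2 signal of each frog minus the 6-frog mean of the same probe set, for the opioid precursors (left) and for the CART and TRH precursors (right), with leptin frogs left of the dotted line. *pdyn.L*, *pdyn.S* and *penk.L* keep nearly the same order of frogs, while *cartpt.L* and *trh.S* do not follow each other (r = 0.19).

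Of the receptors for these peptides, few were measured and none passed. In the opioid list, 4 of 8 genes had a single-symbol probe set, 2 higher and 2 lower in leptin frogs. Besides *pdyn* and *penk* these were *oprl1.L*, the nociceptin receptor, and *pomc.L*, the precursor of beta-endorphin, ACTH and melanocyte-stimulating hormone. The signal of *oprl1.L* was 6.06 ± 0.20 in leptin frogs and 5.87 ± 0.11 in saline frogs (SD, n = 3 each), a difference of 0.19 (SE 0.12). The signal of *pomc.L* was 14.18, 14.25 and 14.01 in leptin frogs, against 9.11, 13.86 and 14.37 in saline frogs 1, 2 and 3. The difference was 1.70 (SE 1.32) with saline frog 1, which was low in pituitary markers, and the leptin values lay between those of saline frogs 2 and 3. The kappa, delta and mu receptors and the nociceptin precursor *pnoc* were not analysed here, having no single-symbol probe set.

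In the TRH list, 7 of 10 genes were measured, 3 higher and 4 lower, and 0 passed with limma over all genes (0% of all genes passed), nor at an unadjusted p under 0.05. Of the TRH receptors, *trhr3.S* read 8.25 to 8.42 in leptin frogs and 8.24 to 8.52 in saline frogs, a difference of -0.07 (SE 0.10). The receptor *trhr2.L* read 6.85 to 7.07 in leptin frogs and 6.78 to 7.22 in saline frogs, a difference of -0.09 (SE 0.13). The third, *trhr.S*, read only 4.39 to 4.59 in leptin frogs and 4.12 to 4.54 in saline frogs. The cytosolic peptidase *pgpep1.S*, which removes the terminal pyroglutamate of TRH, read 4.01 to 4.09 in leptin frogs and 4.05 to 4.38 in saline frogs. These 2 genes lay near the levels that the pituitary hormone genes had in saline frog 1, so their differences of 0.07 (SE 0.14) and -0.14 (SE 0.10) do not show whether their expression changed. Pituitary hormone genes on this list were low in saline frog 1. Prolactin, *prl.1.L*, read 13.08, 13.14 and 12.84 in leptin frogs, against 3.54, 12.70 and 13.39 in saline frogs. The alpha subunit shared by thyrotropin and the gonadotropins, *cga.S*, read 11.62, 11.51 and 11.28 in leptin frogs, against 4.16, 11.17 and 12.20 in saline frogs. For both genes the leptin frogs lay between saline frogs 2 and 3.

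In the list around CART, 6 of 19 genes were measured, 4 higher and 2 lower. Beside *cartpt* and *pomc*, the list held *gpr160.S*, reported as a CART receptor in rodents (0.21, SE 0.20). Its signal was low, 5.62 to 6.26 in leptin frogs and 5.40 to 5.81 in saline frogs. The remaining 3 genes were named after their values were seen. One was *pmch.L*, the precursor of melanin-concentrating hormone, a peptide that raises feeding in mammals. The signal of *pmch.L* was 10.29, 10.71 and 10.39 in leptin frogs, against 10.17, 10.39 and 11.88 in saline frogs, with saline frog 3 far above the rest, and the difference was -0.35 (SE 0.44). The others were the neuropeptide Y receptor *npy2r.S* (0.06, SE 0.11) and the leptin receptor *lepr.S*, which read 4.61 to 5.25 in leptin frogs and 4.80 to 5.20 in saline frogs (-0.01, SE 0.19). At so low a signal, that difference does not show whether *lepr.S* expression changed. None of the 6 passed an unadjusted p of 0.05, against 4.87% of all genes.

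Of 22 listed enzymes and granule proteins that turn precursors into peptides, 14 were measured, 9 higher and 5 lower, with a median difference of 0.03 against -0.02 over all genes. Without saline frog 1 that median was -0.02. The granule membrane protein *ptprn.L* was at 7.83 ± 0.06 in leptin frogs and 7.62 ± 0.0041 in saline frogs (SD, n = 3 each), a difference of 0.21 (SE 0.07, limma adjusted p = 0.874 over genes). It was the 1 member of 14 past an unadjusted p of 0.05, and it was higher in leptin frogs, against 4.87% of all genes past it and 1.51% past it and higher. The amidating enzyme *pam.L*, which gives TRH and many other peptides their terminal amide, differed by -0.19 (SE 0.09), with leptin frogs below all saline frogs. The synaptotagmin *syt4.L* of dense-core vesicles differed by 0.12 (SE 0.07). For *ptprn.L* and *syt4.L* the leptin frogs lay above all saline frogs. Groups did not overlap for 11.9% of all probe sets, but these genes were named for the smallest p on the list, which favours separation. The convertase *pcsk2* and the carboxypeptidase *cpe*, named after their values were seen, differed by 0.08 (SE 0.17) and 0.07 (SE 0.09).

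Of 43 other listed hypothalamic peptide precursors, 14 were measured, 3 higher and 11 lower in leptin frogs, with a median of -0.15, while 44.9% of all genes were higher. Without saline frog 3, the highest frog on this list, the median was -0.06. The hypothalamus and preoptic markers had a similar median, -0.14, with 13 of 19 lower, and the part of tissue makeup in the list was not tested. The list as fixed held *tshz1*, a transcription factor, by mistake, and without it 2 of 13 were higher and the median was -0.16. Past an unadjusted p of 0.05 were 2, both lower (3.36% of all genes), and 0 passed limma adjustment over genes (adjusted p = 0.874 for both).

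The first was *sst.1.L*, a somatostatin precursor, with a difference of -0.27 (SE 0.10), and the second *ucn3.S*, urocortin 3, with -0.27 (SE 0.09). The natriuretic peptide precursor *nppc.S* came next at -0.30 (SE 0.17). In both *sst.1.L* and *ucn3.S* the leptin frogs lay below all saline frogs, as in 6.78% of all probe sets. Both were picked by p, which favours separate groups, so the separation is not a further result. The mean of the list was 9.12 to 9.19 in leptin frogs and 9.17 to 9.48 in saline frogs, with saline frog 3 at the high end.

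**Figure D4:**
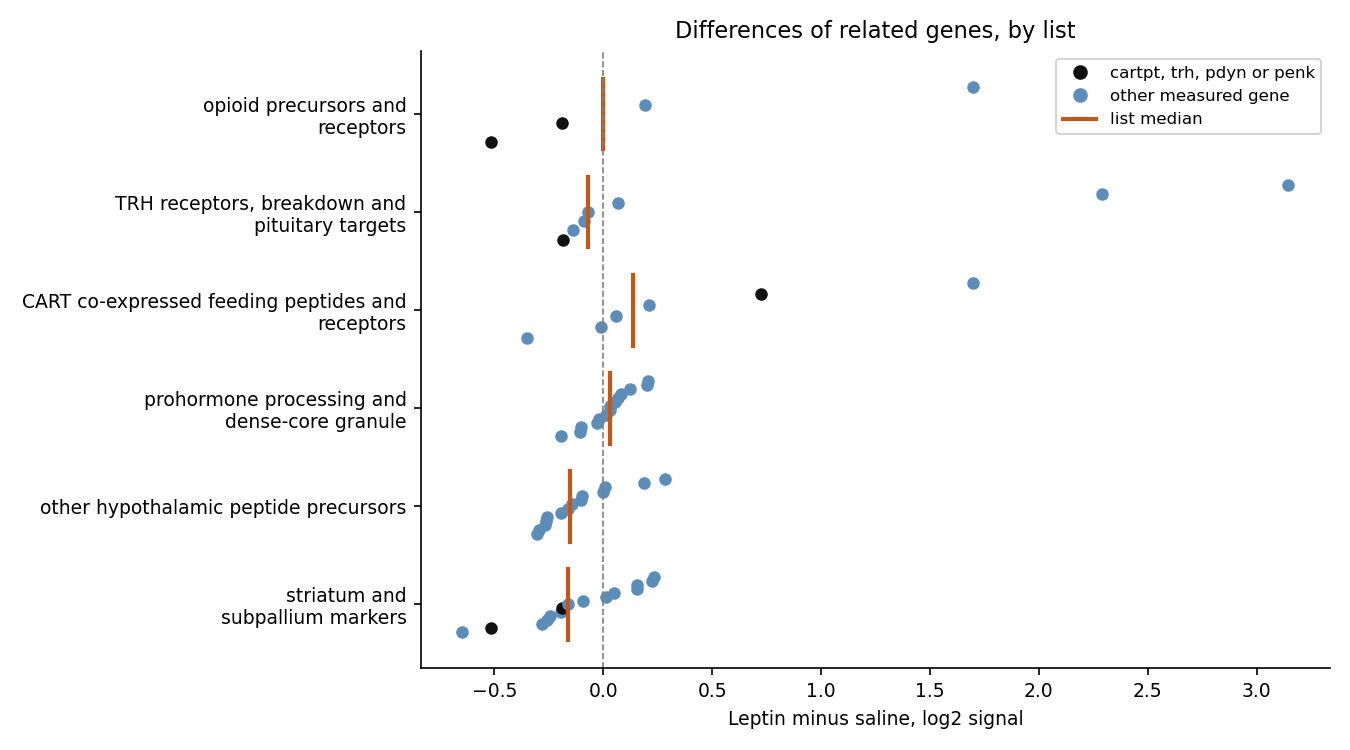
Leptin minus saline difference in log2 signal (x axis) of every measured gene of 6 lists, with *cartpt*, *trh*, *pdyn* and *penk* in black, other genes in blue and the list median as an orange bar. The points above 1.5 are *pomc.L*, *cga.S* and *prl.1.L*, which were low in saline frog 1.

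Markers of the striatum and subpallium, the basal forebrain next to the preoptic area, went both ways. Leaving out *pdyn* and *penk*, which were on that list, 13 markers were measured, 6 higher and 7 lower (median -0.09). At an unadjusted p under 0.05, 3 were lower and 0 higher, against 3.36% and 1.51% of all genes. They were named after their values were seen: *lhx8.L*, a LIM homeobox factor of basal forebrain neurons (-0.65, SE 0.11), the homeobox gene *dlx6.S* (-0.28, SE 0.09) and the dopamine receptor *drd2.S* (-0.25, SE 0.10). In each, the leptin frogs lay below all saline frogs, as in 6.78% of all probe sets. Having been picked by p, which favours separate groups, they are not a fair comparison with that share. Of those on the other side, also named after their values were seen, *meis2.L* was higher by 0.23 (SE 0.11) with all leptin frogs above all saline frogs, *ppp1r1b.S* by 0.22 (SE 0.26) and *foxp2.L* by 0.16 (SE 0.18) with overlap. The mean of the 13 was 9.21 to 9.28 in leptin frogs and 9.25 to 9.44 in saline frogs. With the mean of *dlx2.S*, *dlx5.L* and *dlx6.S* (10.16 to 10.33 in leptin frogs and 10.30 to 10.50 in saline frogs) as a covariate, the *pdyn* differences were -0.51 (SE 0.20, *pdyn.L*) and -0.61 (SE 0.17, *pdyn.S*). With the mean of the muscle genes *acta1.S*, *tnnt3.S*, *ckm.L* and *mylpf.L* as a covariate they were -0.36 (SE 0.14) and -0.31 (SE 0.11), and the *penk.L* difference was -0.10 (SE 0.10). In *dlx5.L* and *dlx6.S* the leptin frogs themselves lay below all saline frogs, and the muscle score mostly set saline frog 3 apart. These fits therefore cannot separate tissue makeup from leptin. The part of tissue makeup in the *pdyn* difference was not tested.

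The *cartpt.L* difference moved more with such covariates. It was 0.23 (SE 0.47) with the subpallium covariate, 0.56 (SE 0.43) with the pituitary covariate, 0.90 (SE 0.33) with the pallium covariate (*emx1.S* and *neurod6.L*) and 1.22 (SE 0.35) with the muscle covariate. Thalamus and midbrain markers, which the dissection could include, averaged 8.08 to 8.61 in leptin frogs and 7.61 to 8.63 in saline frogs over 13 genes, 10 of them higher in leptin frogs. With their mean as a covariate, chosen after seeing the data, the *cartpt.L* difference was 0.47 (SE 0.32). With 1 frog left out it was between 0.53 and 1.07: 0.53 to 0.58 without any one of leptin frogs 4 and 6 and saline frogs 1 and 2, and 1.06 and 1.07 without leptin frog 5 and saline frog 3. The last 2 are the frogs that read like the other group, so leaving either out had to raise it. It did not pass adjustment in any of these settings.

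Genes known to respond to leptin or to neuronal activity were read beside the precursors. The feedback inhibitor *socs3.S* read 7.09, 7.13 and 7.30 in leptin frogs, against 6.13, 6.25 and 6.14 in saline frogs. Its groups did not overlap, with leptin higher, as in 5.15% of all probe sets, but it was named for a small p, which favours separation. Why leptin frog 5 read like saline frogs on *cartpt.L* was not tested. In the leptin and STAT3 list, 9 of 15 measured genes were higher (median 0.04), against 44.9% of all genes. Leaving out saline frog 3 gave a median of -0.04, and leaving out saline frog 2 one of -0.02. The list held *cebpd.L* at 0.57 (SE 0.13) and *socs2.S* at -0.33 (SE 0.11). In the activity and cAMP list, 11 of 12 were higher (median 0.19), against the same 44.9%, and the median was 0.05 without saline frog 3. The list held *btg2.S* at 0.90 (SE 0.10), *nr4a1.L* at 0.72 (SE 0.10) and *fos.S* at 0.80 (SE 0.15). None passed limma adjustment over genes, the lowest adjusted p being 0.175 for *socs3.S*.

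Genes whose pattern over the 6 arrays was most like each precursor's were sought among the brighter 50% of genes, 4636 for each. For *cartpt.L* these were the proteasome gene *psmd14.L* (r = 0.96), *tub.S* (r = 0.95) and the transporter *abcb1.L* (r = 0.94), and 9 genes had r over 0.9. For *trh.S* they were *sspn.S* (r = 0.99), *gpkow.S* (r = 0.99) and the protein disulfide isomerase *p4hb.L* (r = 0.98), and 60 genes had r over 0.9. For *pdyn.L* they were *lsm1.S* and *dcaf7.S* (r = 0.99 each) and *tmem50a.L* (r = 0.99), and for *penk.L* they were *trappc2l.L* and *mob4.S* (r = 0.998 and 0.996) and *txnl4b.S* (r = 0.993). With r over 0.9 there were 229 genes for *pdyn.L* and 211 for *penk.L*. These are descriptions over 6 arrays that share preparation and scaling.

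**Figure D5:**
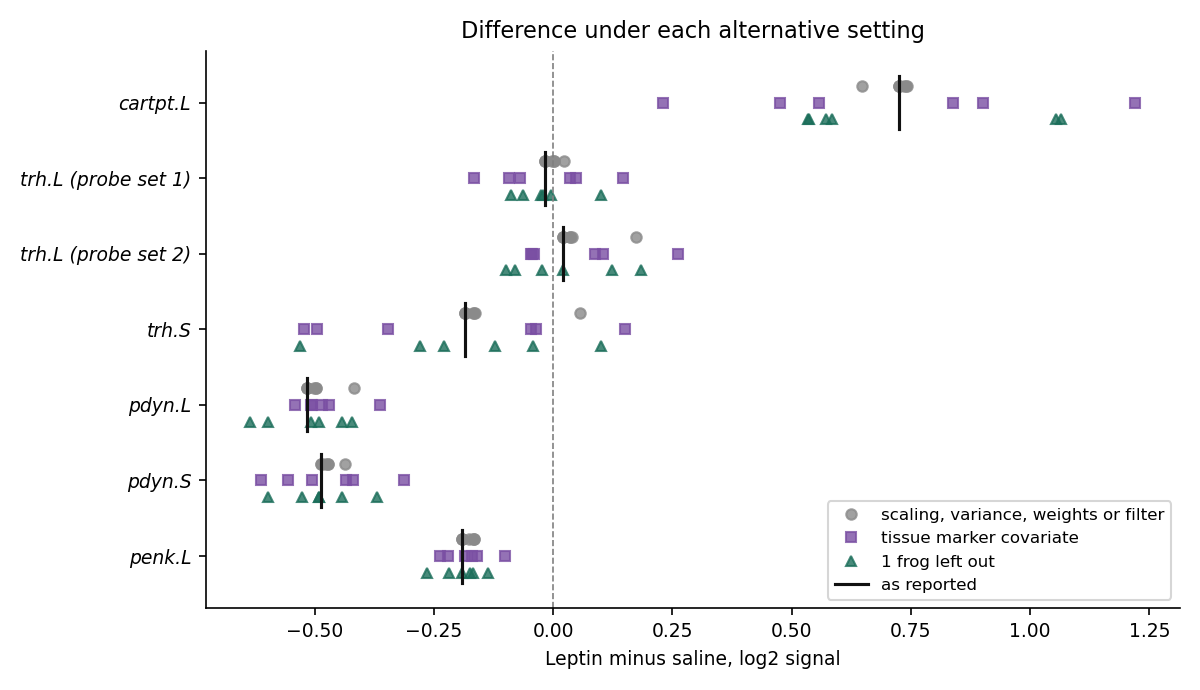
Leptin minus saline difference in log2 signal of each probe set under every alternative setting, grouped by kind of setting, with the value as reported as a black line. The *pdyn.L* values stay between -0.64 and -0.36 and the *pdyn.S* values between -0.61 and -0.31, while the *trh* probe sets fall on both sides of 0.

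The *pdyn* differences kept their direction in 19 of 19 alternatives for *pdyn.L* and 18 of 18 for *pdyn.S*, with unadjusted p under 0.05 in 17 and 18 of them. Part of the count for direction was fixed in advance. Because the groups did not overlap, leaving out 1 frog could not reverse the sign. Settings that changed only the variance or left out dim probe sets did not alter the difference itself. Limma adjusted p stayed between 0.697 and 0.992. Without saline frog 3, the highest frog, the differences were -0.42 (SE 0.14) and -0.37 (SE 0.11). Without saline frog 1, low in pituitary markers, they were -0.49 (SE 0.17) and -0.49 (SE 0.16).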

How the data were processed

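The authors deposited 1 log2 signal for each probe set on each array. RMA, affy and limma appear in the submitters' processing notes with neither versions nor roles, and further settings are not stated there. Per the labels' protocols, Trizol and column extraction was followed by amplification from 250 ng of RNA. Arrays have no sequencing depth, so the number of arrays limits precision, and no measure of background was used. The limma p-values rest on the spread between 3 frogs per group, moderated by the spread of all probe sets fitted. Without moderation the unadjusted p, from an ordinary t-test, was 0.0289 for *pdyn.L* and 0.0255 for *pdyn.S*. With it, the unadjusted limma p was 0.00861 and 0.00805. The exact permutation p-values do not use this moderation.

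From the log2 table, 96 control probe sets were left out and 32539 were fitted in limma 3.58.1 under R 4.3.3 (lmFit, eBayes), two-sided, with no covariate and Benjamini-Hochberg adjustment at 0.05. Tests were checked on simulated data. Symbols came from the array annotation. No name was given to the 279 probe sets with several symbols and the 16765 without one. Each of 9273 genes was represented by its brightest single-symbol probe set, with p adjusted again over genes. List members also matched without a copy number.

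The named genes were every probe set of the 4 precursors, all measured genes of the opioid and TRH lists, the 3 genes of smallest p in other pathway lists, 3 pattern neighbours per precursor, and the score genes. Others are marked. The members and lists were chosen with earlier results of these data known. Alternatives covered scaling, variance, array weights, dim probe sets, tissue covariates, probe sets per gene and each frog left out.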

Additional observations from a re-analysis of the deposited data

How the results depend on the processing

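Of the 7 probe sets, *cartpt.L*, *pdyn.L*, *pdyn.S* and *penk.L* kept their direction and stayed above the adjusted threshold in every alternative run. For *pdyn.L* and *pdyn.S*, whose groups did not overlap, leaving out 1 frog could not change the direction. The *trh* differences changed sign under some, and the cause was not tested. *trh.L* probe set 1 was at 0.00065 with quantile normalization, 0.0010 with cyclic loess, 0.0232 with array weights, 0.15 with the muscle covariate, 0.0479 with the pallium covariate, 0.0347 with the hypothalamus covariate (chosen after seeing the data), and -0.0887 to 0.0998 with 1 frog left out. *trh.L* probe set 2 was at -0.0407 with the pituitary covariate, -0.0477 with the subpallium covariate, -0.0441 with the thalamus and midbrain covariate (chosen after seeing the data), and -0.0988 to 0.184 with 1 frog left out. *trh.S*, at -0.18 as reported, was at 0.0553 with array weights, 0.15 with the muscle covariate, -0.52 with the pituitary covariate, -0.50 with the subpallium covariate, and -0.53 (without saline frog 1) to 0.0991 (without saline frog 3) with 1 frog left out. The 2 probe sets past an unadjusted p of 0.05 became 1 in the brighter 50% of probe sets, which leaves out *pdyn.S*, and 1 with the subpallium covariate. They became 3 in 7 settings: with *penk.L* under eBayes with trend and robust and without saline frog 2, with *trh.S* under the pituitary covariate and without saline frog 1, and with *cartpt.L* under the pallium covariate, without leptin frog 5 and without saline frog 3. With the muscle covariate they stayed 2, *cartpt.L* taking the place of *pdyn.L*. The 2 without overlap became 1 in the brighter 50% of probe sets, and 2 to 4 with 1 frog left out (4 without leptin frog 5 and 4 without saline frog 3), where fewer frogs make separation easier. With scaling, the median leptin minus saline difference over all probe sets was between 0.0048 and 0.02, against 0.0079 as deposited. The pallium score used 2 and the subpallium score 3 measured genes. The pituitary score mostly set saline frog 1 apart, and the muscle and pallium scores saline frog 3. No paired analysis was possible because the frog numbers are not shared between groups.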
